A study of Mus musculus with 4 samples.

Results

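The transcript levels of 10 genes, *Trp53* and 9 genes that the p53 protein is known to activate in cell cycle arrest and stress, were compared between wildtype and *Nrf1*-deficient mouse retinas at E13.5. The genes were picked by name, as *Trp53* and targets outside the Bcl2 family, from the 24062 genes of the deposited table of raw RNA-seq counts. All 10 are in that table, and all 10 passed the filter on low counts with at least 109 reads in every library. Each library was made from RNA of retinas pooled from several embryos, from mice of mixed C57BL/6 and 129 background. The 2 wildtype libraries are compared with 2 libraries labelled Nrf1-CKO, whose genotype is *Nrf1* f/f;*Six3-Cre*. In these animals loxP sites flank exon 4 of both *Nrf1* alleles, and Cre driven by the *Six3* transgene acts in progenitors of the central retina, so that the peripheral retina can keep *Nrf1*. Whether the wildtype embryos carried the floxed allele or the transgene is not given in the sources used here. With 2 pools per genotype, a p-value measures the spread between these pools.

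Nrf1, nuclear respiratory factor 1, is a transcription factor that binds GC-rich promoters, many of them of genes for mitochondrial proteins. The p53 protein is held at a low level by Mdm2, a ubiquitin ligase that is itself a p53 target, and is regulated mostly through the stability and modification of the protein rather than through its mRNA. Once stabilised by DNA damage or other stress it binds pairs of a degenerate decamer and activates genes that stop the cell cycle, repair DNA, limit growth signals or kill the cell. In the embryonic retina it can remove progenitors and newborn neurons that carry damage.

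Promoter sequences are shown first, because the genes are grouped here by a shared activator. The RefSeq promoter table (GRCm38.p6, the same coordinates as mm10) held 8 of the 10 genes, in 11 windows that run from 250 bases before to 50 bases after a start site. The 4 windows below belong to the 4 genes that rose in the Nrf1-CKO retinas, at chr17:29090729-29091028 on the plus strand for the upstream start of *Cdkn1a*, chr11:40755237-40755536 on the minus strand for *Ccng1*, chrX:97377160-97377459 on the minus strand for *Eda2r* and chr1:135765835-135766134 on the plus strand for *Phlda3*. Capitals mark matches to the p53 consensus decamer or, where 2 decamers adjoin, the letters of the pair that match.
Cdkn1a: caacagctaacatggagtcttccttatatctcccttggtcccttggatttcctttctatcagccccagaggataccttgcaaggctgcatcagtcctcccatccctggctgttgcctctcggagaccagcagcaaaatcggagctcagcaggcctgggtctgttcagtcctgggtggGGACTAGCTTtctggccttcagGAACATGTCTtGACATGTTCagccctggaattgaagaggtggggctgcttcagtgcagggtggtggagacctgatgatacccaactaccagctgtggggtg
Ccng1: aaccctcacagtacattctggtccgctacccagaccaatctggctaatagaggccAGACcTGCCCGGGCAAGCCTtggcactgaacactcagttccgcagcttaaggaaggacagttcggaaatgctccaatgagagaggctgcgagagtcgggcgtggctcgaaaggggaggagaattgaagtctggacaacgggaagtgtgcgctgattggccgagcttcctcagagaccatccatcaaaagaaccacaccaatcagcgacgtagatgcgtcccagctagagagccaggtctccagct
Eda2r: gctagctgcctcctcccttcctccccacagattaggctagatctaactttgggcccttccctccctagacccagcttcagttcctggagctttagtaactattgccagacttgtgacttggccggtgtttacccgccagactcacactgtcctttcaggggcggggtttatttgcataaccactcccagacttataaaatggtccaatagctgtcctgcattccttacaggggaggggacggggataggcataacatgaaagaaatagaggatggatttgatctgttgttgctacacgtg
Phlda3: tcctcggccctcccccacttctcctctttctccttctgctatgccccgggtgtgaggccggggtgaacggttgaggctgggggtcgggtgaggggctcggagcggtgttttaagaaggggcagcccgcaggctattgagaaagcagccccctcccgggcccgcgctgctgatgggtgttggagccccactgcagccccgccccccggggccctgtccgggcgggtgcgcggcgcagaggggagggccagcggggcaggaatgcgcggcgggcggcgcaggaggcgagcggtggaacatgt
No capitals stand in the windows of *Eda2r* and *Phlda3*, where no complete decamer was found. The *Phlda3* window ends in gaacatgt, which follows the consensus as far as it runs. Its edge cuts this stretch, so a decamer there could not be scored.

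In the *Cdkn1a* window a pair of decamers without a spacer lies at chr17:29090928-29090947, with its first base at -51 relative to the upstream start site and 2841 bases before the downstream start site, and only its base 11, counted from the 5′ end, is off the consensus. In the *Ccng1* window the pair lies at chr11:40755462-40755481 on the minus strand, 195 bases before the start site, and only its base 5 is off the consensus. The search that allows 1 base off was added after the data had been examined. Such pairs occur in 29 of the 32851 windows of the whole table (0.0883%), and in 2 of the 11 windows of these genes. A pair with no base off, with a spacer of 0 or 1, occurs in 3 windows of the table (0.00913%) and in none of the 11. A single decamer occurs in 8.36% of all windows and in 7 of the 11, which belong to 6 genes. Decamers of 4 genes that were not called are shown with 10 bases on each side, in capitals, for comparison with those above. They lie at chr11:69580284-69580293 (*Trp53*), chr10:117710935-117710944 (*Mdm2*, minus strand), chr10:41887266-41887275 (*Sesn1*) and chr7:78895937-78895946 (*Aen*).
Trp53: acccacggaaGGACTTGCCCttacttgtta
Mdm2: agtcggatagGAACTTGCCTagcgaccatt
Sesn1: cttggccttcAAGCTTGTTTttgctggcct
Aen: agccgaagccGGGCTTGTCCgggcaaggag
The Nrf1 motif GCGCNTGCG, searched on both strands, occurs in 6.31% of all windows and in none of the 11. A match describes the letters in these windows and says nothing on binding in the retina.

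Between 74577660 and 85933945 reads per library fell on genes, and the replicates of a genotype differed by more than sampling noise (the chi-square averaged 46.7 a gene between the wildtype and 58.8 between the Nrf1-CKO libraries). Of the 15762 genes tested, 2024 were called higher and 1268 lower in the Nrf1-CKO retinas, where a call needs a 1.4-fold difference and an adjusted p no higher than 0.2. The *Nrf1* count itself was not called (log2 fold change -0.03, adjusted p = 0.794), with 9052 and 7789 reads in wildtype and 8594 and 8284 reads in Nrf1-CKO libraries, but the allele removes only exon 4, so a count over the whole gene is a weak check of the genotype. The progenitor marker *Pax6* (633 and 660 CPM, counts scaled to library size, in wildtype, 644 and 669 CPM in Nrf1-CKO libraries) was abundant in all 4 libraries. It is 1 of 11 progenitor markers examined, of which 2 were called lower and none higher.

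Of the 10 genes, 4 rose in the Nrf1-CKO retinas and none fell. *Eda2r* rose 8.99-fold, *Cdkn1a* 8.04-fold, *Phlda3* 4.19-fold and *Ccng1* 1.999-fold, whereas *Trp53*, *Mdm2*, *Zmat3*, *Trp53inp1*, *Sesn1* and *Aen* were not called. Among all tested genes 12.8% were called higher and 8.04% lower. The median log2 fold change of the 10 genes was 0.36, beside 0.00073 over all tested genes. No gene of the 10 was lower at an unadjusted p under 0.05 in edgeR's quasi-likelihood test, and DESeq2, edgeR's exact test and limma on the deposited normalized values also called 4 higher and 0 lower. Both Nrf1-CKO libraries lay above both wildtype libraries for 8 of the genes, against 30.9% of all tested genes, and below them for 1, *Sesn1*, against 31.6%. In RNA from whole retinas, fewer cells of a type and less RNA per cell cannot be told apart.

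**Figure D1:**
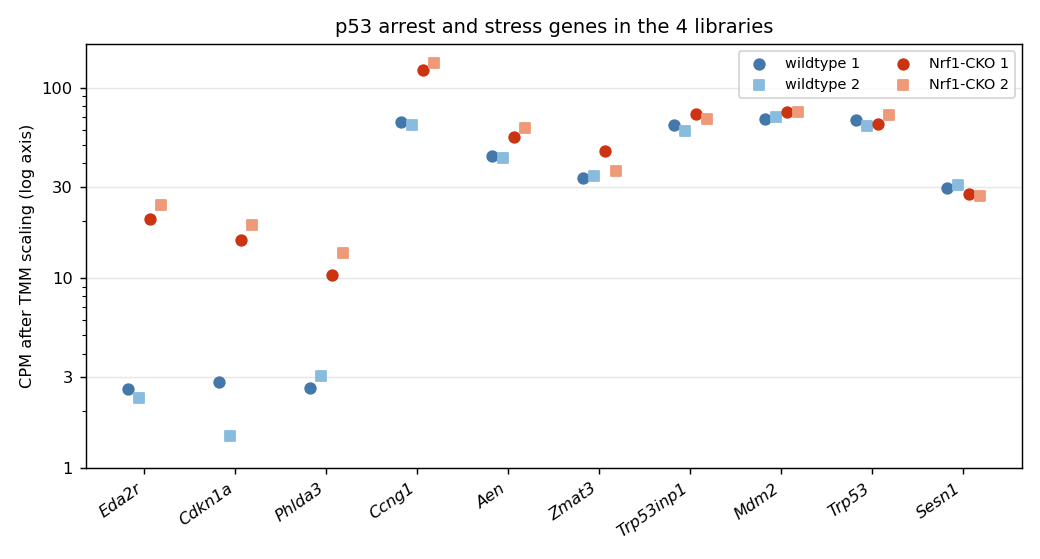
Level of each of the 10 genes in CPM (log axis) in the 2 wildtype and 2 Nrf1-CKO libraries, 1 point per library. The Nrf1-CKO points of *Eda2r* (20.3 and 24.3 CPM) and *Cdkn1a* (15.8 and 19 CPM) stand far above the wildtype points, while those of *Trp53* overlap them.

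*Trp53* encodes the p53 transcription factor (chr11:69580359-69591873, plus strand). It was counted at 67.3 and 63.1 CPM in wildtype and at 64.8 and 72.2 CPM in Nrf1-CKO libraries. The genotypes overlapped, since the lower Nrf1-CKO library lay between the wildtype libraries. Its log2 fold change was 0.07 (SE 0.08, 95% interval -0.12 to 0.26), with an adjusted p of 0.609 in edgeR's quasi-likelihood test with Benjamini-Hochberg adjustment, the test behind every adjusted p of this section unless another is named. A processed pseudogene, *Trp53-ps*, is annotated, so a part of the *Trp53* reads may be hard to place. *Mdm2* (chr10:117688875-117710758, minus strand), the ligase that marks p53 for degradation and part of its negative feedback loop, was at 68.6 and 70.3 CPM in wildtype and at 74.7 and 74.1 CPM in Nrf1-CKO libraries. Both Nrf1-CKO libraries were the higher ones by a few percent. The log2 fold change of *Mdm2* was 0.10 (SE 0.07, 95% interval -0.07 to 0.27, adjusted p = 0.38), and the upper end of the interval lies under the 1.4-fold threshold.

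*Cdkn1a* encodes p21, the inhibitor of cyclin-dependent kinases through which p53 arrests the cell cycle (chr17:29090976-29100727, plus strand). It was counted with 247 and 109 reads in wildtype libraries (2.82 and 1.47 CPM) and with 1311 and 1572 reads in Nrf1-CKO libraries (15.8 and 19 CPM). The genotypes were far apart, although the 2 wildtype libraries differed from each other by 1.92 times. The mean went from 2.14 ± 0.955 CPM to 17.4 ± 2.28 CPM (SD, n = 2 each). The log2 fold change of *Cdkn1a* was 3.01 (SE 0.27, 95% interval 2.40 to 3.62, adjusted p = 0.000178), and 1.01% of the tested genes had a higher one. An unclassified annotated transcript on the opposite strand shares 273 exon bases with *Cdkn1a*, 7.68% of its exon length, and reads from these bases cannot be divided if the counting ignored strand.

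*Ccng1*, which encodes cyclin G1, a cyclin that recruits a phosphatase to Mdm2 (chr11:40748552-40755311, minus strand), was by far the most abundant of the 4 genes that rose. It was at 66.2 and 63.6 CPM in wildtype and at 124 and 135 CPM in Nrf1-CKO libraries. Replicates lay close together and the genotypes were well separated. The mean went from 64.9 ± 1.81 CPM to 130 ± 8.04 CPM (SD, n = 2 each), a log2 fold change of 1.00 (SE 0.08, 95% interval 0.82 to 1.18, adjusted p = 0.000119).

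*Eda2r* encodes a receptor of the tumour necrosis factor receptor family that binds ectodysplasin A2 (chrX:97333840-97377216, minus strand). It had 228 and 174 reads in wildtype libraries (2.60 and 2.35 CPM) and 1687 and 2007 reads in Nrf1-CKO libraries (20.3 and 24.3 CPM). Replicates of each genotype were close to each other, and the genotypes were far apart. The mean went from 2.47 ± 0.182 CPM to 22.3 ± 2.79 CPM (SD, n = 2 each). *Eda2r* had a log2 fold change of 3.17 (SE 0.15, 95% interval 2.82 to 3.51, adjusted p = 7.02e-05), which 134 of the tested genes (0.85%) exceeded. It was the highest of the 10 genes with all libraries, whereas without wildtype replicate 1 *Cdkn1a* (3.57) stood above *Eda2r* (3.25). *Phlda3* encodes a small pleckstrin homology domain protein that competes with the kinase Akt for membrane lipids (chr1:135766119-135769136, plus strand). It was at 2.65 and 3.05 CPM in wildtype and at 10.4 and 13.46 CPM in Nrf1-CKO libraries. Again the genotypes did not overlap. The log2 fold change of *Phlda3* was 2.07 (SE 0.18, 95% interval 1.65 to 2.49, adjusted p = 0.000184).

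The 2 genes for nucleic acid handling differed less. *Aen* encodes an exonuclease that digests DNA and RNA in apoptosis (chr7:78895854-78911209, plus strand), and it was at 43.8 and 42.5 CPM in wildtype and at 55.2 and 61.3 CPM in Nrf1-CKO libraries. Both Nrf1-CKO libraries were above the wildtype. Its log2 fold change of 0.43 (SE 0.08, 95% interval 0.25 to 0.62, adjusted p = 0.0058) passed the p threshold but, at 1.35-fold, not the fold threshold. Without Nrf1-CKO replicate 1 the value was 0.51 (adjusted p = 0.000508) and *Aen* was called, which made 5 called genes. *Zmat3* encodes a zinc finger protein that binds AU-rich RNA and affects splicing (chr3:32334792-32366014, minus strand). It was at 33.7 and 34.2 CPM in wildtype and at 46.6 and 36.6 CPM in Nrf1-CKO libraries. One Nrf1-CKO library was clearly high and the other stood little above the wildtype. The log2 fold change of *Zmat3* was 0.29 (SE 0.12, adjusted p = 0.105), and it was 0.11 without Nrf1-CKO replicate 1 and 0.46 without Nrf1-CKO replicate 2.

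Of the 2 stress response genes, *Trp53inp1* encodes a nuclear protein that takes part in p53 phosphorylation and in autophagy (chr4:11156431-11174379, plus strand). It was at 63.7 and 59.0 CPM in wildtype and at 72.8 and 68.7 CPM in Nrf1-CKO libraries, with no overlap. Its log2 fold change was 0.21 (SE 0.08, adjusted p = 0.101), a fold of 1.15. *Sesn1* encodes sestrin 1, which restrains mTORC1 signalling and protects from oxidants (chr10:41809935-41908424, plus strand). It was at 29.7 and 30.8 CPM in wildtype and at 27.5 and 26.8 CPM in Nrf1-CKO libraries. Alone among the 10 genes, it had both Nrf1-CKO libraries below both wildtype libraries. The log2 fold change of *Sesn1* was -0.16 (SE 0.09, 95% interval -0.36 to 0.05, adjusted p = 0.258).

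**Figure D2:**
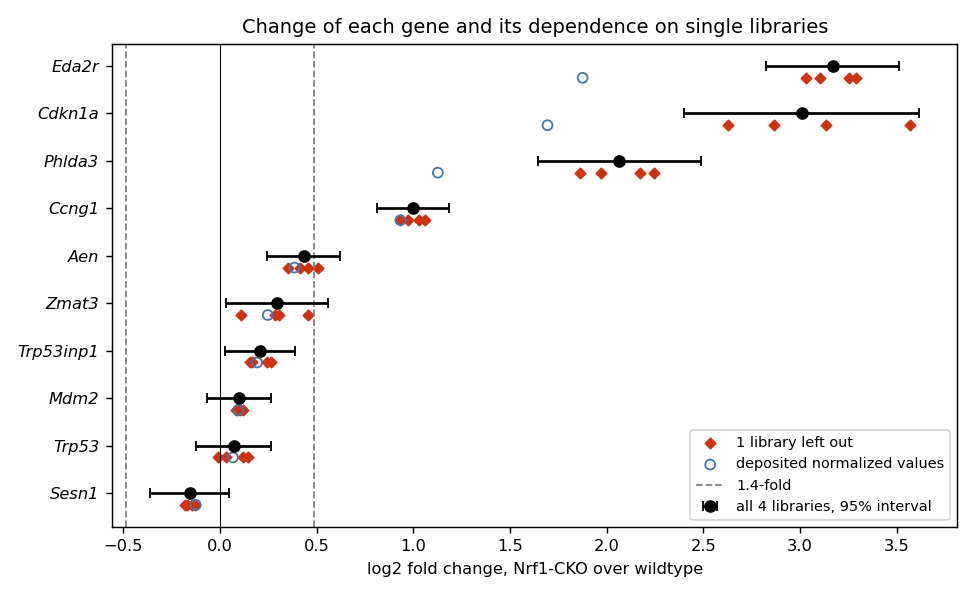
Log2 fold change of each gene, Nrf1-CKO over wildtype, with its 95% interval (bars) from edgeR's quasi-likelihood fit of 2 against 2 libraries. The intervals of *Eda2r*, *Cdkn1a*, *Phlda3* and *Ccng1* lie wholly above the 1.4-fold threshold, whereas those of *Trp53*, *Mdm2* and *Sesn1* include 0.

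A ratio of 2 genes within a library does not depend on how libraries were scaled, so the counts were also set against *Mdm2*. For every 100 *Mdm2* reads there were 4.11 and 2.09 *Cdkn1a* reads in wildtype and 21.1 and 25.6 in Nrf1-CKO libraries. *Eda2r* gave 3.80 and 3.34 reads per 100 *Mdm2* reads in wildtype and 27.2 and 32.7 in Nrf1-CKO libraries. *Ccng1* reads per 100 *Mdm2* reads numbered 96.5 and 90.5 in wildtype and 165.9 and 182.7 in Nrf1-CKO libraries. All 3 ratios, and that of *Phlda3* (3.86 and 4.33 against 13.9 and 18.2), were separated by genotype. The ratio of *Trp53* to *Mdm2* was not separated, with 98.1 and 89.8 reads in wildtype and 86.7 and 97.5 in Nrf1-CKO libraries. *Sesn1* gave 43.3 and 43.8 against 36.7 and 36.2 reads, so that it too was separated, with the lower values in Nrf1-CKO libraries.

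Levels between genes were compared per length, as CPM divided by the kilobases of annotated exons (RPKM). In the wildtype retinas the order was *Ccng1* (18.5 RPKM, mean of 2), *Trp53* (16.1), *Mdm2* (13.7), *Trp53inp1* (9.47), *Sesn1* (7.60), *Aen* (7.44), *Zmat3* (2.97), *Phlda3* (1.83), *Cdkn1a* (0.604) and *Eda2r* (0.420). The neighbours *Sesn1* and *Aen* overlapped between libraries, as did *Cdkn1a* and *Eda2r*. In the Nrf1-CKO retinas *Ccng1* stayed on top at 36.9 RPKM, followed by *Trp53* (16.9), *Mdm2* (14.6), *Trp53inp1* (10.9) and *Aen* (10.04). *Phlda3* (7.65 RPKM) then stood beside *Sesn1* (6.82), with overlapping libraries, ahead of *Cdkn1a* (4.89), and *Eda2r* (3.78) overlapped *Zmat3* (3.64). Even after an 8-fold to 9-fold rise, *Cdkn1a* and *Eda2r* thus remained less abundant per length than *Trp53* and *Mdm2*.

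**Figure D3:**
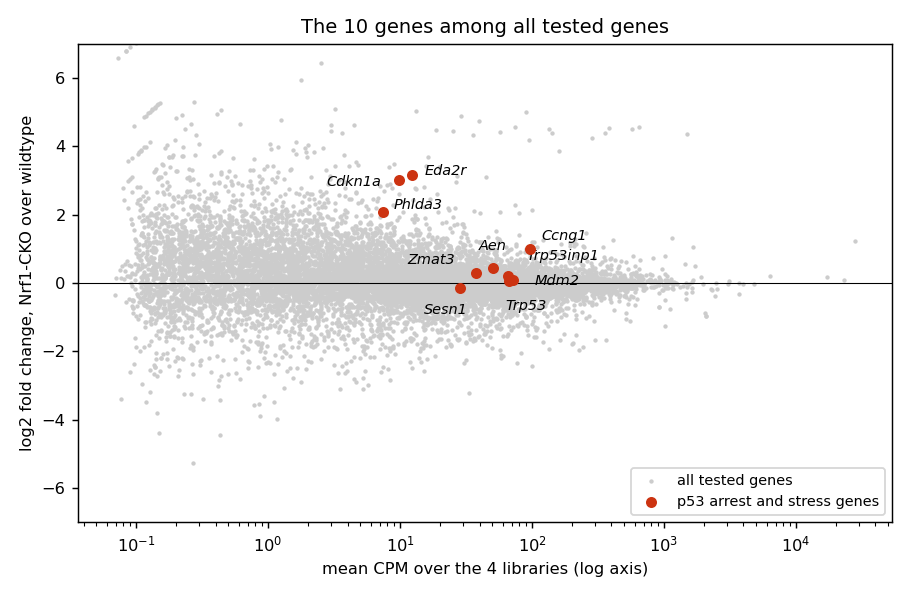
Log2 fold change (Nrf1-CKO over wildtype) against mean level in CPM (log axis) for the 15762 tested genes in grey and the 10 genes in red. *Eda2r*, *Cdkn1a* and *Phlda3* lie at the upper edge of the cloud at their level, and *Trp53*, *Mdm2* and *Sesn1* lie near 0. The log2 fold changes of 11 genes are beyond the axis.

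The wider p53 pathway was described from 6 lists that were written with results of these data known, and *Sesn2*, *Ddit4* and *Cdkn2a* each stand in 2 of them. Of 47 tested genes in a list of other p53 targets, 16 rose (34%, against 12.8% of all tested genes) and 4 fell (8.51%, close to the 8.04% of all tested genes), and the median log2 fold change was 0.33. *Fas*, *Gdf15* and *Trp53cor1*, which had under 10 reads in 1 or both wildtype libraries, passed the filter on low counts only through the Nrf1-CKO libraries, and with at least 10 reads required in every library 13 genes of the list rose. The 3 risen genes with the largest change above 1 CPM were *Def6*, a regulator of Rac signalling (1.85, adjusted p = 0.00523), *Sesn2*, the stress-inducible relative of *Sesn1* (1.70, adjusted p = 0.000209), and *Zfp365*, a gene of genome stability (1.58, adjusted p = 0.000258). *Sesn2* was at 11.3 and 13.0 CPM in wildtype and at 33.1 and 45.6 CPM in Nrf1-CKO libraries, so it was separated by genotype in the direction opposite to *Sesn1*. The 4 genes that fell were *Trp53i11* (-0.89), the ribonucleotide reductase subunit *Rrm2b* (-0.58), the phosphomannomutase *Pmm1* (-0.51) and the kinase *Plk3* (-0.50), the last of which falls outside the rule for named genes and was picked after its value was seen. Without wildtype replicate 2, or with upper-quartile factors, 2 genes of this list were called lower. *Pmm1* was then at -0.47 in both cases and not called, and *Rrm2b* was at -0.47 and not called without Nrf1-CKO replicate 2. Tested against a fold of 1.4 with edgeR's glmTreat at a stricter adjusted p of 0.05, 8 genes were called higher and 1 lower, and limma on the deposited normalized values gave 9 and 1.

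Among 4 Bcl2-family p53 targets, *Pmaip1* and *Bbc3* rose, 2 of 4 beside 12.8% of all tested genes. *Pmaip1*, which encodes the BH3-only protein Noxa, had 30 and 17 reads in wildtype and 270 and 418 reads in Nrf1-CKO libraries (log2 fold change 3.84, SE 0.38, adjusted p = 0.000252). *Bbc3*, which encodes Puma, went from 11.4 ± 2.43 CPM to 21.9 ± 3.07 CPM (SD, n = 2 each, log2 fold change 0.95, adjusted p = 0.00364). The pore-forming effector *Bax* had a log2 fold change of 0.29 (adjusted p = 0.0392), which is under 1.4-fold, and *Bid* one of -0.04 (adjusted p = 0.846). In the fit of the counts *Pmaip1* had a larger log2 fold change than any of the 10 genes, but on the deposited normalized values its log2 difference of 1.10 was under those of *Eda2r* (1.88), *Cdkn1a* (1.69) and *Phlda3* (1.13).

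Of 24 tested regulators and partners of p53, 4 rose (16.7%, near the 12.8% of all tested genes) and none fell, with a median log2 fold change of 0.07. The 4 were *Trp63* (1.45, adjusted p = 0.0653), *Ppp1r13l* (0.58, adjusted p = 0.0545), *Cdkn2a* (2.21, adjusted p = 0.02) and *Trp73* (1.92, adjusted p = 0.059). *Cdkn2a* and *Trp73* had a mean under 1 CPM over the 4 libraries, which puts them outside the rule for named genes, and were picked after their values were seen. *Trp63* was not called without Nrf1-CKO replicate 1 (0.97, adjusted p = 0.327) or without wildtype replicate 2 (1.01, adjusted p = 0.252). Without Nrf1-CKO replicate 1 there were 2 calls in the list, an adjusted p of 0.05 left 1, and glmTreat at an adjusted p of 0.05 and limma on the deposited normalized values called none. In the direction of lower levels, 2 of the 24 genes had an unadjusted p under 0.05 in edgeR's quasi-likelihood test, and neither DESeq2 nor edgeR's exact test called any.

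Genes that p21 is known to repress through the DREAM complex were examined beside *Cdkn1a*. None of the 24 tested, among them *Ccnb1*, *Cdk1*, *Mki67* and *Mcm2*, was called in either direction by edgeR's quasi-likelihood test. Of all tested genes, 12.8% were called higher and 8.04% lower. DESeq2, edgeR's exact test and limma on the deposited normalized values also called none of the 24. Their log2 fold changes ran from -0.27 (*Ccne2*) to 0.25 (*Ccnb1*), with a median of -0.02. These 2 genes alone had an unadjusted p under 0.05, and their adjusted p values were 0.0726 and 0.0728. Of 7 inhibitors of cyclin-dependent kinases other than p21, 3 rose (42.9%, against 12.8% of all tested genes), namely *Cdkn2b* (1.82, adjusted p = 0.00794), *Cdkn1c* (0.58, adjusted p = 0.000997) and *Cdkn2a*, which was already counted among the regulators. *Cdkn1c*, which encodes p57, was at 151 and 161 CPM in wildtype and at 237 and 229 CPM in Nrf1-CKO libraries. None of the 7 fell in edgeR's quasi-likelihood test, DESeq2 or edgeR's exact test. With glmTreat at an adjusted p of 0.05, 1 gene of this list was called higher, and with limma on the deposited normalized values 2. *Cdkn2d* was lower at an unadjusted p under 0.05 in edgeR's quasi-likelihood test with all libraries, but its log2 fold change of -0.32 was short of 1.4-fold. Without Nrf1-CKO replicate 2 the list was not free of lower calls.

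The last list holds genes of the integrated stress response, a pathway run by the factor Atf4 that shares *Sesn2* and *Ddit4* with the list of other p53 targets. Of 14 tested, 8 rose (57.1%, against 12.8% of all tested genes) and 1 fell (7.14%, against 8.04%), with a median log2 fold change of 0.73. The largest changes were those of *Atf3* (2.96, adjusted p = 0.000318), *Chac1* (1.97, adjusted p = 0.000825) and *Trib3* (1.79, adjusted p = 0.00244). *Vldlr* fell by 0.75 on the log2 scale (adjusted p = 0.00617). With glmTreat against a fold of 1.4 at an adjusted p of 0.05 the list had 5 genes called higher and 0 lower, so that *Vldlr* was not called (adjusted p = 0.135), and limma on the deposited normalized values gave 6 and 1.

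**Figure D4:**
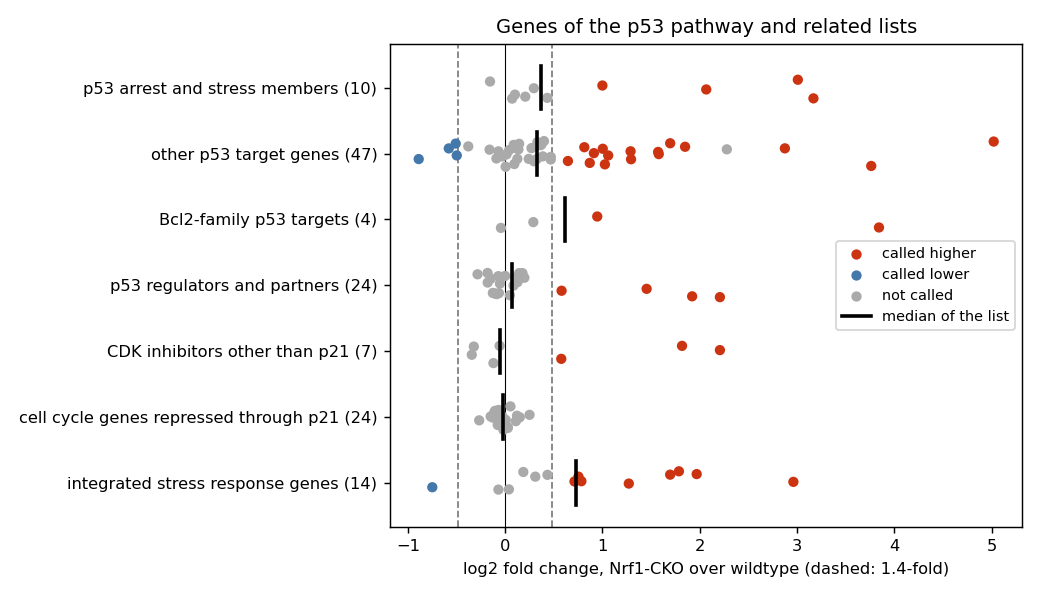
Log2 fold change, Nrf1-CKO over wildtype, of each tested gene of the 10 (top row) and of the 6 related lists, with called genes in colour, the list's median as a black bar and dashed lines at 1.4-fold. Cell cycle genes repressed through p21 all lie between the dashed lines, while lists of p53 targets spread beyond them. The rightmost point is *Fas*, which had 1 and 0 wildtype reads, so that its position depends on the fit and is no measured fold.

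Markers of cell types other than retinal neurons and progenitors differed between the genotypes as well. All 9 tested lens markers were called higher, with a summed level of 126 and 336 CPM in wildtype and 7082 and 2860 CPM in Nrf1-CKO libraries, and *Lgsn* had 0 to 3 reads. *Crygs* (7 and 2 wildtype reads) and *Hsf4* (4 and 5) among the 9 passed the filter on low counts only through the Nrf1-CKO libraries, so their calls carry no weight. All 10 tested macrophage and microglia markers were called higher (sums of 85.5 and 77.1 CPM against 257 and 309 CPM). So were 6 of 8 pigment epithelium markers (215 and 155 CPM against 390 and 416 CPM, with *Rpe65* at 0 to 4 reads) and 6 of 11 periocular mesenchyme markers (270 and 189 CPM against 418 and 355 CPM). Of 9 endothelial markers 7 were called higher and 1, *Kdr*, lower (289 and 292 CPM against 322 and 319 CPM), and the erythroid markers summed to 561 and 663 CPM against 728 and 726 CPM, with *Alas2* called higher and *Hba-a1* and *Hbb-bt* at 0. Within the neural retina, 10 of 11 ganglion cell markers were called lower (1954 and 2202 CPM against 778 and 597 CPM) and, of 11 progenitor markers, *Ccnd1* (-0.88) and *Fgf15* (-0.70) were called lower and none higher.

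Within the Nrf1-CKO genotype, the sum of the lens markers in replicate 1 was 2.48 times that in replicate 2. The same ratio was 0.837 for *Eda2r*, 0.831 for *Cdkn1a*, 0.771 for *Phlda3* and 0.916 for *Ccng1*. In the wildtype, lens markers stood at 0.375 times in replicate 1 relative to replicate 2, and the risen genes at 1.92 times (*Cdkn1a*), 1.11 times (*Eda2r*), 1.04 times (*Ccng1*) and 0.869 times (*Phlda3*). The macrophage and microglia sum had a ratio of 0.832 between the Nrf1-CKO libraries, and was 3.16 and 3.80 times the wildtype mean in them. The pigment epithelium sum had a ratio of 0.939 and was 2.11 and 2.24 times the wildtype mean. *Eda2r* stood at 8.21 and 9.80 times, *Cdkn1a* at 7.36 and 8.86 times, *Phlda3* at 3.64 and 4.73 times and *Ccng1* at 1.91 and 2.09 times their wildtype means. The part of these cell types, and of the lower ganglion cell markers, in the levels of the 10 genes and of the related lists was not tested.

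**Figure D5:**
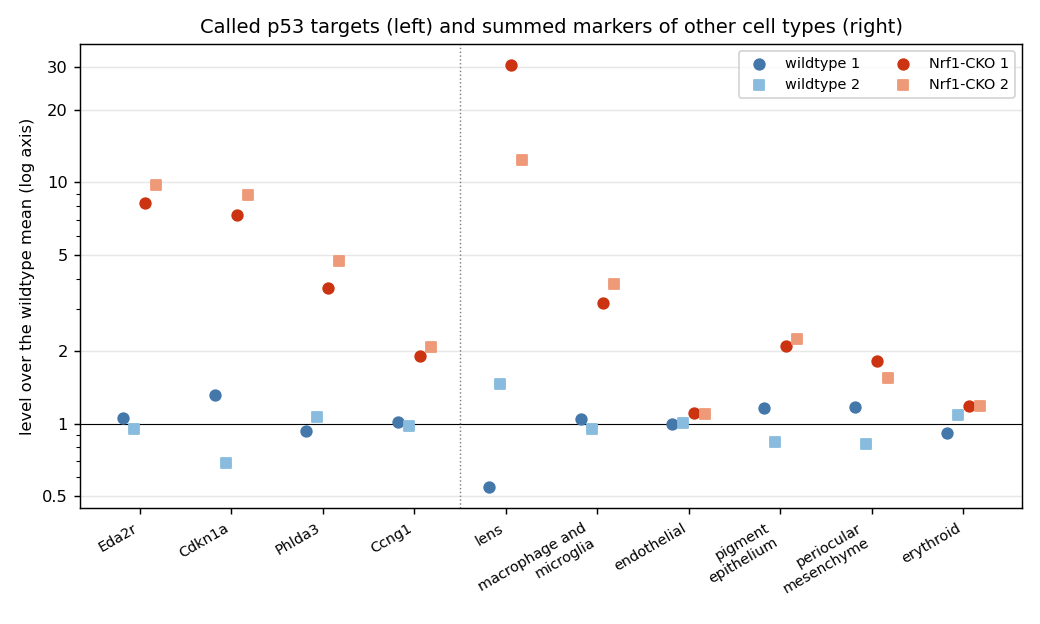
Level in each library over the wildtype mean (log axis) for the 4 risen p53 targets (left) and the summed markers of 6 other cell types (right), 1 point per library. Of the Nrf1-CKO libraries, replicate 1 is the higher one in lens (2.48 times) and mesenchyme markers (1.18 times), and replicate 2 in the 4 genes, the macrophage and microglia markers and the pigment epithelium markers.

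All 4 genes were called higher under each of the 15 alternative tests, scalings, filters and omitted libraries. With 1 of the libraries omitted at a time, the log2 fold change ran from 3.03 to 3.29 for *Eda2r*, from 2.63 to 3.57 for *Cdkn1a*, from 1.86 to 2.24 for *Phlda3* and from 0.93 to 1.06 for *Ccng1*. On the deposited normalized values, tested with limma, the log2 differences were 1.88 for *Eda2r*, 1.69 for *Cdkn1a*, 1.13 for *Phlda3* and 0.93 for *Ccng1*, so the 3 genes of low wildtype level had smaller differences on that scale and were still called.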

How the data were processed

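RNA-seq libraries of E13.5 retinas, 2 wildtype and 2 Nrf1-CKO, were grouped by genotype as labelled. The authors made cDNA with NuGen reagents, sequenced paired ends on an Illumina HiSeq instrument, aligned to mm10 and deposited raw HTSeq read counts per gene; the submitters' processing notes list TopHat2 2.7.2, HTSeq, DESeq and limma, with no role or order. The authors also deposited normalized values on a log2 scale. The gene annotation, the strand setting of the counting and which tool made the normalized values are not given in the sources used here. The names in the header line do not stand above their columns and were taken in order. Summary rows of HTSeq (74% to 75% of entries) stayed out.

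Counts were filtered with filterByExpr (minimum count 10), scaled by TMM (factors 0.992 to 1.02) and tested in edgeR 4.0.16 (R 4.3.3) with the quasi-likelihood test, genotype as the only term and Benjamini-Hochberg adjustment over 15762 genes. Calls used the thresholds of the study's methods, a fold of 1.4 and an adjusted p of 0.2; its own test, Cuffdiff, needs aligned reads. Standard errors rest on 2 libraries a genotype and a biological coefficient of variation of 12.0%; PCR copies are not independent molecules. DESeq2 1.42.0 and limma 3.58.1 gave alternatives. The procedure was tested on simulated data. RPKM used the exon lengths of GENCODE M21 (GRCm38). Named genes were the 10 members, the Bcl2-family targets and, per list and direction, the 3 called genes of largest change at a mean of at least 1 CPM. The 10 genes and all lists were chosen with earlier results of these data known. p53 decamer pairs were searched in promoter windows only, not over the wider stretch planned, since no genome sequence was used. *Tigar*, *Cop1* and *Adgre1* were not found in the table under these symbols. Single values of some marker genes are not reported here.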

Additional observations from a re-analysis of the deposited data

How the results depend on the processing

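Of the 10 genes, 4 were called higher and 0 lower under each of the 15 alternatives except without Nrf1-CKO replicate 1, where *Aen* was also called; leaving out 1 library gave 4 to 5. Among the 10 genes and the companion genes chosen by the rule for named genes, *Trp53* and *Bid* changed direction, both without Nrf1-CKO replicate 2 (*Trp53* -0.0109, *Bid* 0.073), neither being called; over the 4 omissions *Trp53* ran from -0.0109 to 0.148 and *Bid* from -0.172 to 0.073. Against a fold of 1.4 in glmTreat, with the adjusted p also lowered to 0.05, 754 of all tested genes were called higher and 523 lower. The deposited normalized values with limma gave 945 and 723, and the cause was not tested. Over all related lists together 31 genes were called higher, but 28 with at least 10 reads in every library, 15 with glmTreat and 18 with limma; 5 were called lower, but 1 with glmTreat, 2 with limma and 3 with upper-quartile factors, and 3 to 6 when 1 library was left out. An adjusted p of at most 0.05 left 1445 genes higher and 1039 lower. Replicate numbers are shared by the genotypes, but deviations of same-numbered libraries did not go together (r = -0.0025). With the replicate block, 4 of the 10 genes were called higher, 1970 of all genes higher and 1256 lower, and no call on the 10 genes changed. No scaling moved the median of all genes by over 0.1. The version with a pseudocount was not run, because the deposited values are already on a log2 scale. Genes under 1 CPM had few reads, and 2 libraries a genotype limit every interval.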

Other observations

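Several p53 target genes of low level, picked after their values were seen, stood higher in Nrf1-CKO libraries. Among them *Fas*, *Gdf15* and *Trp53cor1* passed the filter on low counts only through the Nrf1-CKO libraries, so their calls carry no weight. *Fas*, which encodes a death receptor, had 1 and 0 reads in wildtype and 21 and 20 reads in Nrf1-CKO libraries, at least 6.62-fold higher against a floor of 3 reads per library. *Tnfrsf10b*, another death receptor and like *Eda2r* of the tumour necrosis factor receptor family, went from 2.09 and 2.08 CPM to 5.10 and 5.11 CPM (log2 fold change 1.29, adjusted p = 0.00234 in edgeR's quasi-likelihood test). *Gdf15*, a secreted stress factor, had 4 and 2 reads in wildtype and 25 and 61 reads in Nrf1-CKO libraries. *Trp53cor1*, the noncoding gene beside *Cdkn1a*, had 27 and 3 wildtype reads and 83 and 136 Nrf1-CKO reads. The 2 wildtype libraries differ here by more than in *Cdkn1a*, with the higher value in wildtype replicate 1 in both genes.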
